A study of Mus musculus with 4 samples.

Results

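The Ugt1a cluster encodes UDP-glucuronosyltransferases of the liver and other organs, and its rows in 2 comparison tables of mouse liver RNA are described here. Members were all rows whose gene name starts with Ugt1a. They came to 11 of 7569 transcripts in a table of RNA immunoprecipitated with an antibody against methylated adenosine, and to 1 of 12883 genes in a table of the matching input RNA. All 12 rows carry the name Ugt1a10. The cluster was chosen by the immunoprecipitate fold changes and adjusted p-values of its rows, several of which were among the lowest, so the immunoprecipitate values below are a description and support nothing by themselves.

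Livers of wild-type mice were compared with livers of Fto knockout mice, all of C57/Bl6 background, with immunoprecipitate and input as separate libraries and 3 replicates stated for each of the 4 groups. Fto encodes an enzyme that removes methyl groups from adenosines in RNA, and the labels do not say how the gene was inactivated or the age of the mice. The libraries were made by miCLIP, in which the antibody is crosslinked to RNA fragments that are then cloned as in iCLIP. The antibody binds N6-methyladenosine and also m6Am, the dimethylated adenosine next to the cap. Single libraries were not analysed here. Their depth is therefore unknown, and every value is the authors' summary over libraries.

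UGT1A enzymes sit in the membrane of the endoplasmic reticulum and attach glucuronic acid, taken from UDP-glucuronic acid, to bilirubin, steroids, phenols and drugs, which are then secreted into bile or urine. The genes of the cluster are unusual in their build. Each has its own promoter and its own first exon, which encodes the part of the enzyme that binds the substrate, and all are spliced to one common set of downstream exons, which encodes the part that binds the sugar donor and the membrane anchor. Ugt1a1 is the bilirubin enzyme, and Ugt1a6a and Ugt1a6b act mainly on planar phenols.

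In RefSeq's annotation of GRCm38.p6, the assembly that mm10 stands for, the cluster covers chr1:88055411-88220002, a span of 164592 bases. It holds 9 protein-coding Ugt1a genes nested inside each other. Starts run from Ugt1a10, 165 kb upstream of the common end, through Ugt1a9 (149 kb), Ugt1a8 (132 kb), Ugt1a7c (125 kb), Ugt1a6b (117 kb), Ugt1a6a (85.2 kb), Ugt1a5 (54.0 kb) and Ugt1a2 (19.4 kb) to Ugt1a1 (8.04 kb). Annotated ends are 88220002 for 7 genes and 88218998 for the other 2, Ugt1a8 and Ugt1a6b. A read from an exon that several of these genes share fits each of them and cannot be assigned to 1 promoter. A read from a first exon can be, but only where its sequence occurs in 1 gene of the cluster. Rows of the cluster can thus share reads and are not independent.

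**Figure D1:**
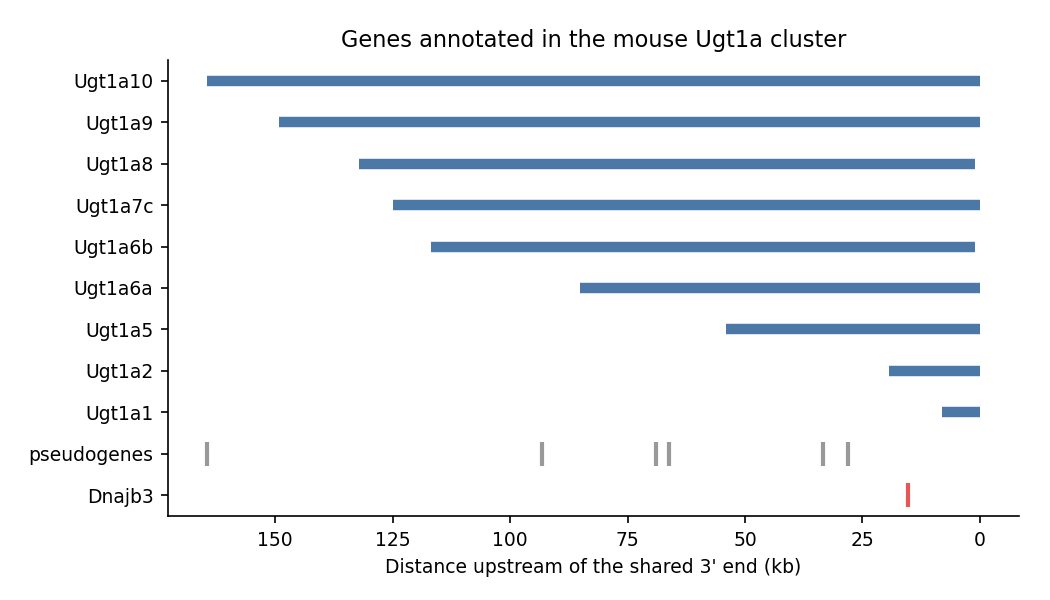
Extent of the 9 Ugt1a genes (bars), of 6 pseudogenes and of Dnajb3 (ticks at their lower coordinate) in RefSeq's annotation, by distance in kb upstream of the shared end. All 9 bars reach that end or stop 1 kb before it, while their starts lie between 165 and 8.04 kb upstream.

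The base at the annotated start is shown because m6Am forms only where a capped transcript begins with A. The promoter table of RefSeq held 8 of the 9 genes. Each line gives the 20 bases before the start and 10 bases from it, on the plus strand of GRCm38.p6, 5′ to 3′, with the start base in capitals.
Ugt1a10: gcagtaggtcttgtgcctctActtttaaac
Ugt1a9: cttttttaaccagctctattAgaaaatctt
Ugt1a8: cccaaattagaagaacacacAgtcccagcc
Ugt1a7c: ttttttactgttctcctcagTaaatcattc
Ugt1a6a: tctttggtggtggttagaaaAcccagaatt
Ugt1a5: gagtaagagtcataccctgcTgaggaaacc
Ugt1a2: tgcaggatcctacagccctcAgcattcagg
Ugt1a1: ctcctcgtgtgtcatgagccAgcttgagta
Of these 8 starts, 6 were A, and the starts of Ugt1a7c and Ugt1a5 were T. A was the start base in 34.4% of all 32851 RefSeq promoters. An annotated start is not a measured one, and the tables hold no position of antibody crosslinks.

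The upstream sequences were searched for motifs as a description of the cluster. The immunoprecipitate rows could not be assigned to single promoters, so no motif is set against their values. The core GCGTG of the element bound by the aryl hydrocarbon receptor, a regulator of Ugt1a genes, was searched on both strands over 250 bases before to 50 after the start. It was found for Ugt1a8 and Ugt1a5, which is 2 of 8 promoters, against 32.4% of all promoters of that length. The 120 bases before the start of these genes follow, with the core or its reverse complement CACGC in capitals.
Ugt1a8, chr1:88087708-88087827: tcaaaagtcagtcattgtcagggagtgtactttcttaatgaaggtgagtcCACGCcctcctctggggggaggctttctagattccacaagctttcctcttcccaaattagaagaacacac
Ugt1a5, chr1:88165892-88166011: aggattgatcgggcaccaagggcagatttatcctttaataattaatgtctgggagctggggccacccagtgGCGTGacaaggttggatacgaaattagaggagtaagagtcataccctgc
Counted back from the start, the match began at base 70 in Ugt1a8 and at base 49 in Ugt1a5. TATAAA, searched the same way, was in 0 of 8 promoters (13.6% of all). The promoters of Ugt1a10 and Ugt1a9 are close copies, identical at 229 positions of an alignment of their 300 bases. Every other pair of the 28 had between 150 and 172 identical positions. Promoters of unrelated genes were not aligned, so these numbers are not read as a likeness above background. A match is a string of letters and not a binding site.

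Before the cluster's values are given, the samples were checked in brief. No input gene had a lower p than Fto, which the authors' deposited table puts at −1.49 on the log2 scale (SE 0.27, adjusted p = 3.52e-04), and this is why the input is read as knockout over wild type. The immunoprecipitate is read the same way, on no more than a weak correlation with the input across 717 protein-coding genes (Spearman 0.173, a description across genes). Read the other way, every immunoprecipitate sign below turns. In the input all 10 hepatocyte markers were measured, with means from 294 to 84262, and 0 passed the threshold (1 unadjusted p under 0.05). Over all input genes with an adjusted p, 0.0389% passed it and 2.21% had an unadjusted p under 0.05. Of 21 markers of other cell types 17 were measured, with means from 2.13 to 270; 0 passed and the median log2 fold change was 0.00, against 0.02 for all genes. The 1 marker with an unadjusted p under 0.05 was Alas2, the heme synthesis gene of red cells, which the authors' deposited table puts at −0.99 in the input (SE 0.29, p = 4.92e-04, adjusted p = 0.443) and at −8.78 in the immunoprecipitate (SE 2.71, p = 0.0340, adjusted p = 0.187). Its part in the Ugt1a values was not tested. Liver is bulk tissue, where fewer cells of a type and less RNA per cell cannot be told apart.

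In the immunoprecipitate most Ugt1a transcripts stood far below 0. All means, log2 fold changes, standard errors and p-values of rows are those of the authors' deposited tables. Of the 11, 10 had a negative log2 fold change, and the median was −9.23 against −1.59 for all 7569 features. An adjusted p is given for 9 of them, and 8 were called lower, that is with the authors' adjusted p under 0.05. Of all features with an adjusted p, 3.79% were called lower. This contrast was used to choose the cluster, so the count is not read against that share. With the adjusted p under 0.1 the cluster had 8 calls and the share of all features was 7.16%. Calls made from fold change over standard error numbered 8 as well, at a share of 8.01%. With the deposited p adjusted over every feature that has one, the cluster had 4 calls, at a share of 0.424%. The 8 made up 8.99% of the 89 lower calls, which carry 70 gene names. Next came Rps9, a ribosomal protein gene, with 3 called transcripts, and 12 names had more than 1.

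The called transcripts fell into 2 levels of fold change. At the lower level, the authors' deposited table puts ENSMUST00000073049 at −11.81 (SE 2.24, adjusted p = 0.0157, mean 39.9). In the same column of the authors' deposited table ENSMUST00000113134 stood at −11.24 (SE 1.65, adjusted p = 2.74e-04, mean 40.4), the lowest p of the cluster. ENSMUST00000113135 and ENSMUST00000113138 had the same values in every column of the authors' deposited table, namely −11.20 (SE 1.73, adjusted p = 3.86e-04, mean 17.9). This pair therefore counts as 1 measurement, which leaves 10 distinct rows and 7 distinct calls.

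At the upper level, the 2 most abundant rows lay close together. ENSMUST00000113137 had the highest mean, 61.2, and the authors' deposited table gives it −9.23 (SE 1.92, adjusted p = 0.0384). ENSMUST00000014263 had a mean of 45.0 and stood in the authors' deposited table at −9.25 (SE 1.94, adjusted p = 0.0349). A second near pair agreed in fold change to 2 decimals at −9.11, with ENSMUST00000097659 at a mean of 14.7 (SE 2.28, adjusted p = 0.0274) and ENSMUST00000049289 at a mean of 13.7 (SE 2.33, adjusted p = 0.0344). The 8 called rows spanned 2.71 on the log2 scale, and their standard errors ran from 1.65 to 2.33, so the gap between the levels is of the size of these errors. It was not tested, since the rows can share reads.

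The other 3 transcripts had fewer reads. In the authors' deposited table, ENSMUST00000058237 stood at −6.55 (SE 3.17, mean 1.89) and ENSMUST00000113139 at −6.02 (SE 3.06, mean 1.92). Both have a p-value (0.0512 and 0.0496) and no adjusted p. Every feature with an adjusted p in this table had a mean of at least 6.95, so these means lie below the level at which the authors adjusted. ENSMUST00000073772 was the only row above 0, at 2.89 (SE 2.49, adjusted p = 1, mean 7.92), and its 95% interval reaches from −1.99 to 7.77.

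**Figure D2:**
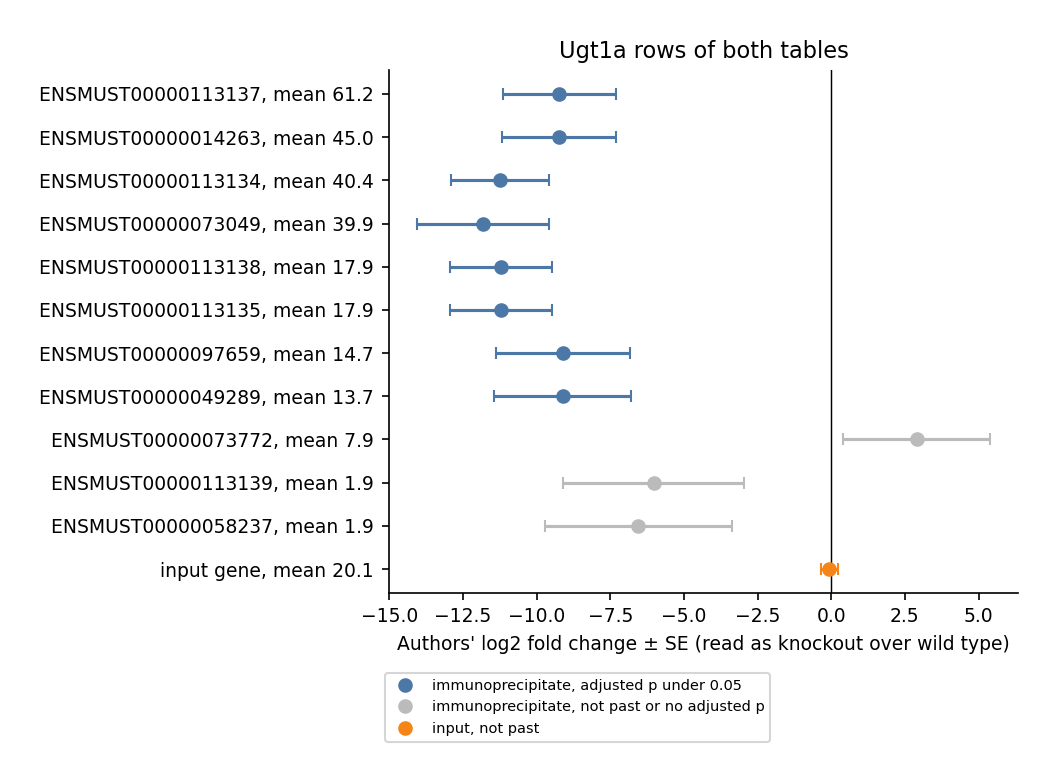
Authors' log2 fold change (horizontal axis, bars are 1 standard error) of the 11 immunoprecipitate transcripts, ordered by mean, and of the 1 input gene. The 8 called transcripts lie between −11.81 and −9.11, the transcript of mean 7.92 lies above 0, and the input gene lies at −0.06.

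The sizes of these fold changes are not measured sizes. If the fold change compared 2 groups of equal size and nothing else, the called rows would leave the lower group a mean between 0.0152 and 0.204 normalized reads per library. Summed over 3 libraries that is at most 0.611 normalized reads. The depth of the libraries is unknown, so this is not a count of raw reads. Rows at −9.11 and at −11.81 then both describe a group with almost no reads. On this reading the higher group would have a mean from 27.4 to 122 normalized reads per library.

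The authors' p-value does not test the printed fold change by its standard error. Their statistic gives that p as a chi-square value with 1 degree of freedom. For all 11 rows it was smaller than the fold change over its standard error, squared, which a Wald test would use. For ENSMUST00000113134 the statistic was 24.4 and the Wald value 46.2, and for ENSMUST00000113137 they were 10.5 and 23.1. For ENSMUST00000073772 they were 0.00228 and 1.35. The term of the authors' model behind the statistic is not stated in any label or header, so fold change and p need not speak of the same contrast.

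**Figure D3:**
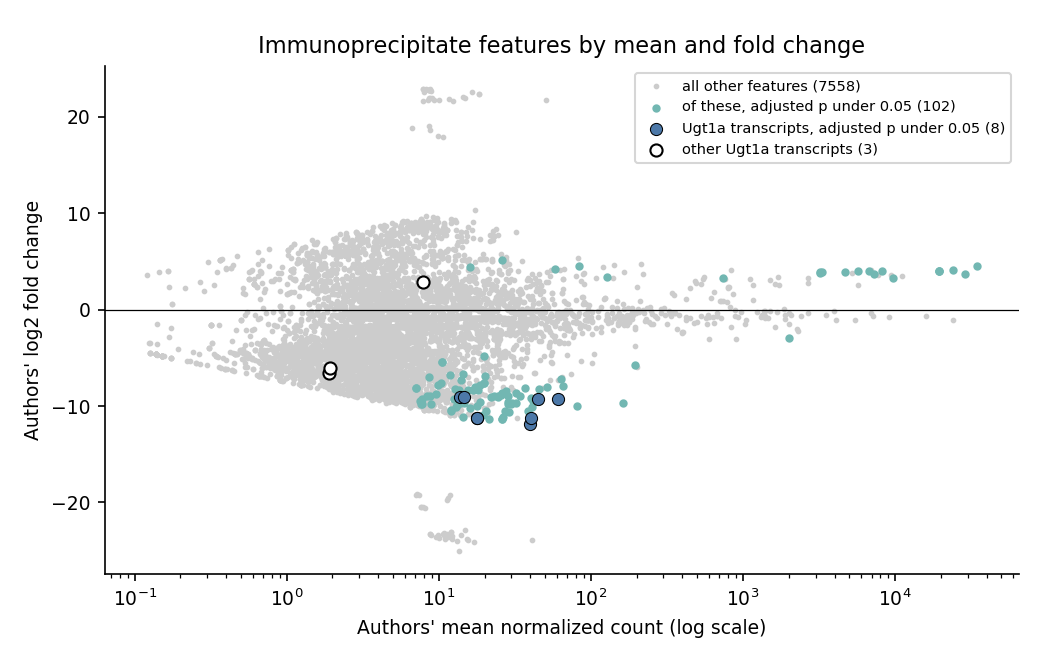
Log2 fold change (vertical axis) against mean normalized count (horizontal axis, log scale) for all immunoprecipitate features, from the authors' deposited table. The 8 called Ugt1a transcripts lie among other called features at means of 13.7 to 61.2, near the lower edge of the main cloud.

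Fold changes this low also occurred outside the cluster. Among the 885 features with a mean between 13.7 and 61.2, the range of the called rows, the median log2 fold change was −0.96. In that range 64 features, or 7.23%, lay under −9, and 8 of them were Ugt1a rows. Lower calls made up 7.04% of the 838 features there with an adjusted p. No feature of another name had the mean and fold change of a Ugt1a row (tolerance 1e-06 of the value). The rows of the authors' deposited table most like the 4 most abundant ones, by distance in log2 mean and log2 fold change between 2 conditions, were SNORA55, a snoRNA, at −9.15 (mean 40.6), the snoRNA snoU83B at −9.47 (mean 41.9) and the peroxiredoxin gene Prdx1 at −9.49 (mean 45.4).

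Ugt1a10 had many transcripts in the immunoprecipitate. Of 4802 protein-coding gene names in the immunoprecipitate, only Ctnnd1, a catenin gene, had more rows (22, of which 0 were called). Among the 53 names with at least 5 transcripts, 2 had a call, Ugt1a10 with 8 of 11 and the growth factor gene Igf1 with 1 of 6. Only 2347 of all 7569 features had an adjusted p and could be called, 3.79% of them lower and 0.895% higher. How many rows of the other names could be called was not counted. The calls of Ugt1a10 were used to choose the cluster, so its place among these names is not a result. Transcripts of 1 gene can share reads, and the median spread between the highest and lowest fold change was 0.90 over these 53. For Ugt1a10 it was 14.71, exceeded only by Mrps17 at 15.08, and it rests on the 1 row above 0.

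In the input, the Ugt1a row did not differ between knockout and wild type beyond its error. The authors' deposited table gave it −0.06 on the log2 scale (SE 0.30, p = 0.840, adjusted p = 0.9998, mean 20.1). The 95% interval from that error reaches from −0.64 to 0.52. The input fold changes have the small sizes and errors of shrunken estimates (largest SE 0.302), so this interval does not exclude a larger change in the unshrunken value. The row was not called, and 0.0389% of the 12865 input genes with an adjusted p were. Its unadjusted p did not reach 0.05 either, whereas 2.21% of those genes had one under it.

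Which Ugt1a transcripts the input row stands for is open to doubt. Its identifier, ENSMUSG00000054545, is named Ugt1a10 in the table and Ugt1a6a in the current name list, where the other 8 genes of the cluster have identifiers of their own. None of those 8 identifiers is among the input genes analysed here, so there is no value for Ugt1a1, the bilirubin enzyme, as such. How reads in exons common to several genes were counted is not stated. The Ugt1a transcripts of the immunoprecipitate could not be matched to current gene names either.

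The mean in the immunoprecipitate was then set against that in the input. For 717 protein-coding genes with both means at 10 or more, the highest transcript mean in the immunoprecipitate was divided by the input mean of the same name. The tables were normalized separately, so only the order of the ratios is meant. Ugt1a10 had a ratio of 3.04 (61.2 over 20.1), and the median gene had 0.129. A higher ratio was found for 12 genes. The immunoprecipitate mean is pooled over both genotypes, and under the reading given above it would stand for 122 normalized reads in the higher group and 0.204 in the lower. The row would then pass the minimum of 10 only through its higher group, and its place in the order would not be that of both genotypes. The 6 Ugt2 genes that could be compared, whose enzymes glucuronidate steroids and bile acids, ran from 0.0169 for Ugt2b1 to 0.169 for Ugt2b5. Each ratio sets reads of a transcript against reads of a gene identifier, and what share of the cluster's reads the input identifier holds was not tested.

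**Figure D4:**
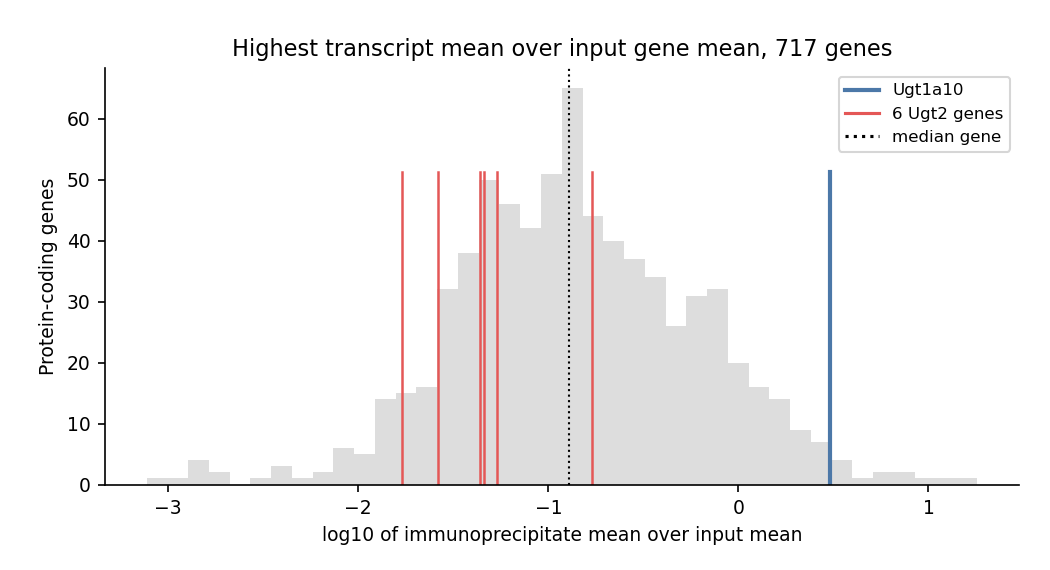
Ratio of the highest transcript mean in the immunoprecipitate to the gene's mean in the input (horizontal axis, log10) for 717 protein-coding genes, with the number of genes on the vertical axis. Ugt1a10 at a ratio of 3.04 lies in the right tail, and the 6 Ugt2 genes lie between 0.0169 and 0.169 around and below the median of 0.129.

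Other genes inside the span of the cluster were looked up by position. RefSeq lists 7, of which 6 are pseudogenes. Input values exist for 5 pseudogenes, each with a fold change smaller than its standard error. Their log2 fold changes ran from −0.05 for Gm15368 to 0.08 for Gm15374, at means from 5.07 to 6.84, and 0 had an unadjusted p under 0.05. The last is Dnajb3, a chaperone gene at chr1:88204732-88205748, between the starts of Ugt1a2 and Ugt1a1. It was measured in the immunoprecipitate, where the authors' deposited table puts it at −6.92 (SE 2.01, adjusted p = 0.0887, mean 30.1). Dnajb3 thus missed the threshold, with a fold change on the same side as most Ugt1a rows. It lies inside the span of the longer Ugt1a genes, before the exons they have in common. Whether reads were counted by strand is not stated, and whether unspliced Ugt1a RNA added reads at Dnajb3 was not tested. Of 11 genes listed as neighbours of the cluster, 8 had input values (median −0.01), from −0.29 for Mroh2a to 0.25 for the secreted phosphoprotein gene Spp2. Of these, 0 passed, with 0 unadjusted p-values under 0.05. Over all input genes with an adjusted p, 0.0389% passed and 2.21% had an unadjusted p under 0.05.

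The other UDP-glycosyltransferases were then set beside the cluster. Of 13 listed genes, 7 were measured in the immunoprecipitate with 8 transcripts (median −2.63), of which 2 were called lower and 0 higher. Both are transcripts of Ugt2b34 with equal values, which the authors' deposited table puts at −7.66 (SE 1.98, adjusted p = 0.0423, mean 19.9). They count as 1 measurement. Of all features with an adjusted p, 3.79% were called lower. Among the 8 listed transcripts, 7 had an adjusted p. Ugt2b5, which had the most reads of them, stood in the authors' deposited table at −1.39 (SE 1.37, adjusted p = 0.726, mean 70.1), and Ugt2a3 at −3.86 (SE 1.92, adjusted p = 0.247). In the input 10 were measured (median −0.05), from −0.67 for Ugt2b38 to 0.16 for Ugt2b1. None passed, and the lowest adjusted p was 0.9998. Ugt2b38 alone of the 10 had an unadjusted p under 0.05. Over all input genes with an adjusted p, 2.21% had one and 0.0389% were called. Ugt2b34 itself stood in the authors' deposited table at 0.10 (SE 0.21) in the input.

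Genes that supply and remove glucuronic acid showed no call in either table, and 0 unadjusted p-values under 0.05. Over all features with an adjusted p, 3.79% were called lower in the immunoprecipitate and 0.0389% were called in the input. At these shares so few rows can easily give 0 calls, and the 0 is not read as a result. In the immunoprecipitate only Ugp2, which makes UDP-glucose, and Gusb, the lysosomal enzyme that cleaves glucuronides, were measured, with 3 transcripts between −5.61 and −2.46 (median −2.88). Only 1 of the 3 had an adjusted p and could be called. In the input all 6 were measured (median 0.14), with Slc35d1, which carries UDP-glucuronic acid into the endoplasmic reticulum, at −0.28 (SE 0.24), Abhd10, which hydrolyses some drug glucuronides, at 0.32 (SE 0.30) and Ugp2 at 0.23 (SE 0.27). Ugdh, the enzyme that makes UDP-glucuronic acid, stood in the authors' deposited table at −0.08 (SE 0.23, adjusted p = 0.9998, mean 338).

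Genes of heme breakdown and bilirubin transport, upstream and downstream of bilirubin glucuronidation, had 0 calls in both tables. They had 1 unadjusted p under 0.05 in the immunoprecipitate and 0 in the input. Over all features with an adjusted p, 3.79% were called lower in the immunoprecipitate and 0.0389% were called in the input. At these shares so few rows can easily give 0 calls, and the 0 is not read as a result. In the immunoprecipitate 9 of 12 genes were measured with 14 transcripts, 12 of them below 0 (median −3.56). Among these, 3 rows of Slco2b1 had equal values (−1.75, SE 2.61, mean 4.21) and are 1 measurement, which the count and the median hold 3 times. Only 3 of the 14 had an adjusted p, so the others could not be called. The lowest p in the authors' deposited table belonged to Blvrb, a biliverdin reductase, whose transcripts at −9.28 (SE 2.61, adjusted p = 0.130) and −23.44 (SE 3.18, adjusted p = 0.226) differed in size at means of 9.11 and 11.03. The remaining Blvrb transcript stood in the authors' deposited table at −0.82 (SE 2.45, mean 5.51). Rows of Abcc4, Keap1 and Rxra had this same −0.82, so it need not be a measured size. Slco1b2, an uptake carrier of bilirubin and bile acids, had the highest mean of them, 66.6, and stood in the authors' deposited table at 0.93 (SE 1.501). In the input all 12 were measured (median 0.03), with Abcc2, which exports bilirubin glucuronides into bile, at −0.14 (SE 0.22), and Hmox1, the heme oxygenase, at 0.34 (SE 0.29). There the lowest p of the authors' deposited table was that of the exporter gene Abcc4 at 0.53 (SE 0.30, adjusted p = 0.9998).

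Among 13 transcription regulators known to act on Ugt1a genes, 1 immunoprecipitate transcript was called and 5 of 18 had an unadjusted p under 0.05. An adjusted p was given for 11 of the 18, and 3.79% of all features with one were called lower. The share of all features with an unadjusted p under 0.05 was not computed here, so the 5 are not read as many or few. The called transcript belongs to Ppara, the fatty acid receptor, and the authors' deposited table puts it at −10.47 (SE 1.65, adjusted p = 2.66e-04, mean 27.1), while 2 other Ppara transcripts at −6.11 and −4.97 were not. The 18 transcripts of 9 measured regulators had a median of −2.35, 12 were below 0, and they reached from that Ppara row to 7.21 for a transcript of the bile acid receptor gene Nr1h4. The 5 are the 3 Ppara rows, Nr1i2 and a transcript of the glucocorticoid receptor gene Nr3c1. Nr1i2, the xenobiotic receptor PXR, stood in the authors' deposited table at −8.93 (SE 2.39, adjusted p = 0.174), and that Nr3c1 row at −7.54 (SE 2.64, p = 0.0404, no adjusted p). Hnf4a, a hepatocyte regulator, stood at −3.88 and Nr1i3, the receptor CAR, had rows at 5.31 and 1.90, none of them called. The value of 5.31 belongs to 2 Nr1i3 rows that are equal (mean 19.2) and are 1 measurement.

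The same regulators were measured in the input, all 13 with a median of −0.0033, and 0 passed, with 2 unadjusted p-values under 0.05. Ahr, the aryl hydrocarbon receptor, had the lowest p there, and the authors' deposited table puts it at 0.78 (SE 0.23, p = 7.18e-04, adjusted p = 0.553), and Ppara stood at −0.51 (SE 0.24, p = 0.0335, adjusted p = 0.9998). Nr1i2 stood in the authors' deposited table at −0.29 (SE 0.26). Over all input genes with an adjusted p, 0.0389% were called and 2.21% had an unadjusted p under 0.05. The regulators were listed with earlier results of these data known, so their 2 are not read against that share.

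Other target genes of these regulators had 0 calls in both tables. An unadjusted p under 0.05 was found for 1 transcript in the immunoprecipitate and for 3 genes in the input. Of all features with an adjusted p, 3.79% were called lower in the immunoprecipitate and 0.0389% were called in the input. In the input 2.21% of them had an unadjusted p under 0.05. The list was chosen with earlier results of these data known, so its counts are not read against these shares. In the input 22 of 24 were measured, 17 above 0, with a median of 0.13 against 0.02 for all genes. In the authors' deposited table the 3 genes were Alas1, the first enzyme of heme synthesis, at 0.90 (SE 0.27, adjusted p = 0.577), Cyp1a2, a target of the aryl hydrocarbon receptor, at 0.55 (SE 0.23, adjusted p = 0.9998) and the glutathione transferase gene Gstm2 at 0.59 (SE 0.28, adjusted p = 0.9998). In the immunoprecipitate 16 of them had 18 transcripts with a median of −0.82. Rows of Gstm1 and Gstm3 also stood at this recurring value, so the median need not be a measured size. The 18 ran from −9.63 for Cyp2c55 to 3.09 for Gclc, with 12 below 0 and 6 above. Cyp2b9 at −8.79 and Cyp4a10 at −8.65 were low as well. These 3 low rows had means from 3.57 to 6.23 and no p-value. An adjusted p was given for 9 of the 18, and the others could not be called. A Gstm2 transcript had the lowest p, at −5.61 (SE 2.11, adjusted p = 0.141). The other Gstm2 transcript stood in the authors' deposited table at −0.82 (SE 2.67). In this table the hepatocyte markers, with 14 transcripts of 9 genes, had a median of −0.45 and the 5 measured markers of other cells −3.66, with 0 calls in either and an unadjusted p under 0.05 for 0 and 1 transcripts. Only 12 of the 14 hepatocyte rows and 1 of the 5 other rows had an adjusted p and could be called.

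**Figure D5:**
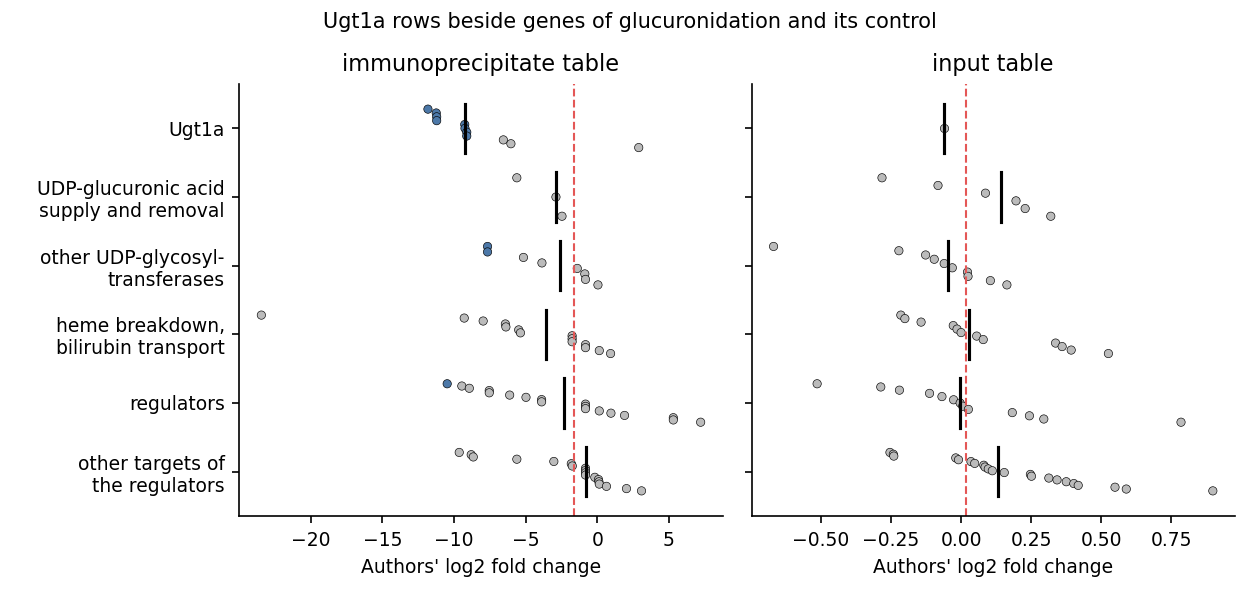
Authors' log2 fold changes (horizontal axes, which differ in scale) of the Ugt1a rows and of 5 gene lists in each table, 1 point per row, with called rows in blue, list medians as black bars and the median of all features as a dashed line. Called rows are the 8 Ugt1a transcripts, 2 of Ugt2b34 and 1 of Ppara, all in the immunoprecipitate.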

How the data were processed

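The deposited files are the authors' own comparisons, 1 table by transcript for the immunoprecipitate and 1 by gene for the input. Per the submitters' processing notes, STAR, bedtools 2.25.0, DESeq2 and mm10 were used, with no role given. Per the file headers, the authors give a mean normalized signal over libraries, a log2 fold change, its standard error (also log2), a test statistic (a score), a p-value and an adjusted p-value. Rules for counting, modelling and filtering are not stated in the labels or headers. Nothing in the labels says that replicates were separate animals; the p-values then cover only the spread among these samples, possibly a technical one.

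Rows were selected by table name in Python 3.11.15 with pandas 2.3.3. Called means an authors' adjusted p under 0.05. Intervals are 95% normal intervals from the authors' standard error. Input identifiers were matched to current symbols for 12869 of 12883 genes. The 8 gene lists name their called members and up to 4 others with the lowest p, and a few more were named for their role after their values were seen. Of the listed genes, 1 is not reported here. Members and lists were chosen with earlier results of these data known. Alternative adjustments were computed with Benjamini-Hochberg and tested on simulated data. Sequences come from RefSeq's GRCm38.p6 promoters and were aligned with biopython 1.88.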

Additional observations from a re-analysis of the deposited data

How the results depend on the processing

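The count of 8 called Ugt1a transcripts in the immunoprecipitate was 8 with the adjusted p under 0.1, with calls from fold change over standard error, and at a minimum mean of 10, and 7 with equal rows counted once. The threshold of 0.1 and the minimum mean could not lower the count. A looser threshold keeps each call, and the called rows have means from 13.7 up. Fold change over standard error is not what the authors' p tests. Adjusting the deposited p over all 6846 features that have one, instead of the authors' smaller set, left 4, because more features enter the adjustment. Those 4 include the pair of equal rows. The median fold change of all 11 transcripts, −9.23, ran from −10.23 to −7.64 over the alternatives, the latter after centring on the median feature. The input row stayed uncalled under each alternative, at −0.06, and at −0.08 after centring. Naming by current gene identifier was not run for the immunoprecipitate, since no table used here pairs its transcripts with current genes. No paired analysis was possible because the tables analysed here hold no values of single libraries, and no replicate could be left out. For 2 transcripts the mean lay under 2 normalized reads, and their standard errors exceeded 3 on the log2 scale.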
